A study of Mus musculus with 10 samples.

Results

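The genes described here are the 37 genes of the mouse mitochondrial genome, chromosome MT of build GRCm38, out of 54838 Ensembl gene ids in the count tables. They were taken by chromosome and symbol alone, without use of any measured value: 13 genes for mRNAs, 2 for rRNAs and 22 for tRNAs, with 28 genes on the plus strand and 9 on the minus strand of the annotation. The libraries hold ribosome-bound RNA obtained by translating ribosome affinity purification (TRAP), in which EGFP-tagged ribosomal protein L10a is immunoprecipitated from the cells that express it. All mice were of strain C57BL/6 and genotype MC-TRAP (Drd2-Cre;Eef1a1LSL.eGFPL10a/+), were about 10 weeks old, and carried the tagged L10a wherever Drd2-Cre was active. The study compared hilar mossy cells, excitatory neurons of the dentate gyrus, between the dorsal and the ventral hippocampus, with 5 Dorsal and 5 Ventral libraries and no treatment in either group. Each library came from the pooled tissue of 5 mice, so a replicate is a pool. The study's methods give fewer mice than 10 separate pools would need, so Dorsal and Ventral libraries share animals, and the labels do not say which. The Drd2-Cre line also labels some GABAergic interneurons and other hippocampal neurons, and no library of input RNA was analysed here.

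Mitochondrial DNA is transcribed from both strands into long precursors that are cut, largely at the tRNAs, into rRNAs, mRNAs and tRNAs. The mRNAs encode subunits of respiratory complexes I, III, IV and V, whose other subunits are nuclear-encoded, made on cytosolic ribosomes and imported. Mitochondrial mRNAs are translated inside the organelle by mitochondrial ribosomes, whereas L10a is a protein of the cytosolic ribosome, so mitochondrial RNA is not a known target of this precipitation. TRAP libraries are bulk samples, in which fewer cells of a type and less RNA per cell cannot be told apart.

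Counts on genes ranged from 11138676 to 20594364 read pairs per library. The read pairs outside all annotated genes made up 27.0% ± 5.09 (SD, n = 5) of the pairs in Dorsal and 14.4% ± 2.997 (SD, n = 5) in Ventral, with no overlap between the groups (two-sided exact permutation test, p = 0.00794, the smallest p that 5 against 5 libraries can give). Of the 8 mossy cell markers 7 could be tested, of which 2 were called higher in Dorsal and 2 in Ventral, beside 15.7% and 9.85% of all tested genes. Among these, Calb2, the gene of calretinin, stood at 65.0 ± 9.30 CPM in Dorsal and 615 ± 94.4 CPM in Ventral, and Gria3, an AMPA receptor subunit, at 270 ± 26.5 and 166 ± 12.7 CPM (SD, n = 5 each). CPM is the count relative to the library's total on genes, with edgeR's TMM factors applied.

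Part of the mitochondrial genome also exists as copies in the nuclear genome, which bears on what a count table of uniquely aligned reads can hold. The annotation holds 7 unprocessed pseudogenes on chromosome 1, in a row on the minus strand at chr1:24611535-24616197 (GRCm38). They copy parts of the mitochondrial genome from position 6381 to position 11042, and span 4663 bases where the mitochondrial stretch has 4662. The bases between the annotated copies were not read here. The copies of mt-Co2, mt-Atp6, mt-Co3, mt-Nd4l and mt-Nd4 had 0 differences from the mitochondrial gene over 681, 678, 783, 294 and 876 aligned bases, respectively. The copy of mt-Nd3 differed at 1 of 345 bases, T3C, and the copy of the last 492 bases of mt-Co1 at 6, T1056A, C1057T, A1059G, A1060G, C1062A and A1066T. In these notations the mitochondrial base comes first, the position is counted from 1 at the first base of the mitochondrial gene, and the base of the copy comes last. The stretches printed next show how few bases separate a mitochondrial transcript from its nuclear copy. They are read 5′ to 3′ on the strand of the gene, with the differing bases in capitals. The mt-Co1 stretch lies at chrMT:6381-6440 on the plus strand and its copy Gm29216 at chr1:24616138-24616197 on the minus strand. That of mt-Nd3 lies at chrMT:9459-9518, with Gm28438 at chr1:24613060-24613119, and that of mt-Co2 at chrMT:7013-7072, with Gm28661 at chr1:24615506-24615565.
mt-Co1: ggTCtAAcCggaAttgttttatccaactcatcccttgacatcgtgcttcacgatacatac
Gm29216: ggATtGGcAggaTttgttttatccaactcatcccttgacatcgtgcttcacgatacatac
mt-Nd3: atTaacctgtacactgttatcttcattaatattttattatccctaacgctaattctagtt
Gm28438: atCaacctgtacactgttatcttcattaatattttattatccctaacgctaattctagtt
mt-Co2 and Gm28661: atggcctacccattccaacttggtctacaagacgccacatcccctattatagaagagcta

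For each mitochondrial gene, the share of its 50-base windows, the length of 1 read, that occur without mismatch in an annotated transcript outside chromosome MT was computed on both strands. The share was 100% for mt-Co2, 99.9% for mt-Co3, 99.5% for mt-Atp6, 98.8% for mt-Nd4l and 98.0% for mt-Nd3, counting also the copies on other chromosomes. It was 62.2% for mt-Nd4, 51.1% for mt-Co1, 8.19% for mt-Nd2, 7.61% for mt-Nd5 and 1.04% for mt-Rnr2. No window of mt-Rnr1, mt-Nd1, mt-Nd6, mt-Cytb or mt-Atp8 was found in such a transcript. The count tables list 0 read pairs as aligned to several places in every library, so pairs recorded that way, if any, were not in the input of the counting.

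The 5 genes with a share of 98.0% or more had hardly any counts. Over all 10 libraries mt-Co2, mt-Co3, mt-Atp6, mt-Nd4l and mt-Nd3 had 8, 16, 5, 4 and 0 counts, against 18962 to 69299 for the 7 other mRNA genes outside mt-Atp8. mt-Atp8, a subunit gene of ATP synthase, also had 0 counts, although the annotation lists no copy of it. Its last 43 bases are also the first bases of mt-Atp6, and the rest lies in the 233 bases that separate the copied stretches of mt-Co2 and mt-Atp6. On chromosome 1 the copies of these genes are also separated by 233 bases, whose sequence was not read here. The end of mt-Atp8 (chrMT:7917-7969) is shown with the bases it shares with mt-Atp6 in capitals, since those bases belong to the copied stretch of mt-Atp6.
mt-Atp8: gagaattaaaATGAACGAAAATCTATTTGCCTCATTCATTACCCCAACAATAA
Of the 37 genes, 11 lie wholly within the stretch that the copies span, 6 for mRNAs and 5 for tRNAs. These 11 held 35 of the 1803687 counts on mitochondrial genes. The 5 tRNAs and mt-Atp8 had no window in an annotated transcript outside chromosome MT, so no whole copy of them was shown. With so few counts, levels of the 11 genes, and of the complex V subunits as a group, were not measurable in these tables. That is not the same as absent.

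**Figure D1:**
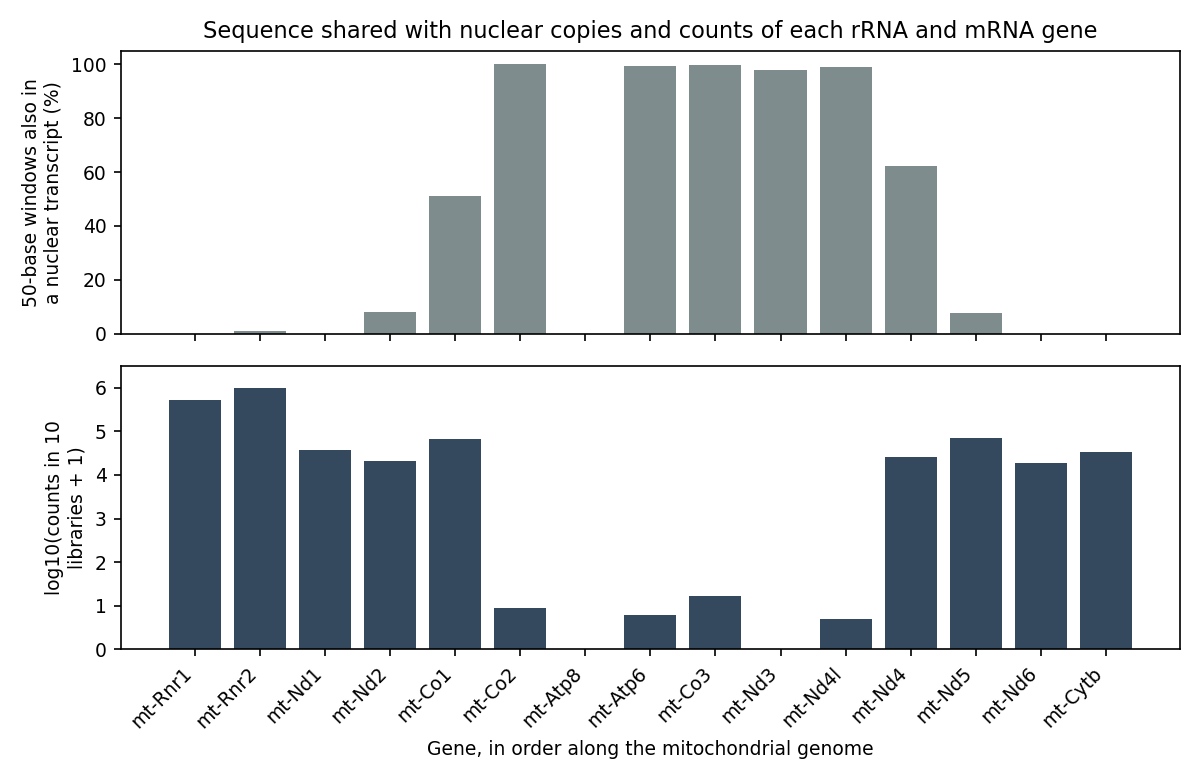
The upper bars give, for each mitochondrial rRNA and mRNA gene in genome order, the percent of its 50-base windows found without mismatch in an annotated transcript outside chromosome MT, and the lower bars give log10 of its counts summed over 10 libraries plus 1. The 5 genes with shares of 98.0% or more had 16 counts or fewer, as did mt-Atp8, for which the annotation lists no copy.

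The 2 rRNAs were the most abundant mitochondrial transcripts, and both were more than 3-fold higher in Dorsal than in Ventral. mt-Rnr1 (955 bases, chrMT:70-1024), the small-subunit rRNA of the mitochondrial ribosome, stood at 5808, 6392, 5164, 6267 and 5637 CPM in Dorsal 1 to 5 and at 1509, 928, 2138, 1418 and 1508 CPM in Ventral 1 to 5. The lowest Dorsal library was above the highest Ventral library. edgeR's quasi-likelihood test with Benjamini-Hochberg adjustment over 16806 genes gave a log2 fold change of 1.96 (SE 0.16, adjusted p = 7.31e-06). mt-Rnr2 (1582 bases, chrMT:1094-2675), the large-subunit rRNA, stood at 12419, 10516, 10077, 10849 and 9967 CPM in Dorsal and at 3143, 1996, 4324, 2988 and 3452 CPM in Ventral. These groups did not overlap either, and the same test gave a log2 fold change of 1.76 (SE 0.15, adjusted p = 1.03e-05). Among the 16806 tested genes, mt-Rnr2 ranked 6 and mt-Rnr1 ranked 12 by mean level.

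Of the 37 genes, 10 passed the filter of more than 1 CPM in at least 2 libraries: both rRNAs, 7 of 13 mRNAs and 1 of 22 tRNAs. A gene was called where its adjusted p was below 0.05 and the log2 ratio of the group means of CPM plus 1 was beyond 0.58 in either direction. All 10 were called higher in Dorsal and 0 in Ventral, where the share of all tested genes called higher in Dorsal was 15.7% and in Ventral 9.85%. In all 10 the CPM of the groups did not overlap, which held with Dorsal higher for 9.81% of all tested genes and with Ventral higher for 8.36%. Their median log2 fold change was 1.96, with a range of 1.63 to 2.47, beside a median of -0.0044 over all tested genes. With TMM factors applied, mt-Tp was above 1 CPM in the 5 Dorsal libraries and in 1 Ventral library, at 1.01 CPM. The filter used CPM without these factors, and mt-Tp entered the test through the group where it was high. The 9 others were above 1 CPM in every library. The 10 genes lie on 2 precursor strands and are not independent of each other.

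Complex I, the NADH dehydrogenase, takes 7 of the 13 mRNAs, of which 5 were measurable. mt-Nd1 (chrMT:2751-3707) had 385, 477, 407, 380 and 384 CPM in Dorsal, against 90.3, 60.8, 190, 102 and 134 CPM in Ventral. mt-Nd2 (chrMT:3914-4951) had 208, 311, 209, 231 and 217 CPM in Dorsal, against 52.8, 34.4, 88.5, 41.1 and 60.7 CPM in Ventral. Dorsal 2 was the highest Dorsal library and Ventral 3 the highest Ventral library for both, and no Ventral library reached the Dorsal range. The log2 fold change was 1.82 for mt-Nd1 (SE 0.22, adjusted p = 8.43e-05, edgeR) and 2.09 for mt-Nd2 (SE 0.21, adjusted p = 2.27e-05). mt-Nd4 (chrMT:10167-11544), of which only the part after base 876 is free of the chromosome 1 copy, had 249, 310, 309, 244 and 270 CPM in Dorsal, against 57.0, 43.8, 134, 61.4 and 98.1 CPM in Ventral. Its log2 fold change was 1.81 (SE 0.23, adjusted p = 0.000136, edgeR), close to that of mt-Nd1. mt-Nd3 and mt-Nd4l, the 2 remaining subunits, were in the copied stretch, with 0 counts and 4 counts.

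mt-Nd5 and mt-Nd6 meet end to end on opposite strands. mt-Nd5 (chrMT:11742-13565, plus strand) had 787, 951, 616, 836 and 733 CPM in Dorsal, against 136, 103, 302, 146 and 206 CPM in Ventral, a log2 fold change of 2.14 (SE 0.23, adjusted p = 4.03e-05, edgeR). mt-Nd6 (chrMT:13552-14070) is the only mRNA gene annotated on the minus strand, and had 223, 275, 148, 246 and 194 CPM in Dorsal, against 30.0, 37.9, 77.3, 34.1 and 54.4 CPM in Ventral. Its log2 fold change of 2.23 (SE 0.24, adjusted p = 3.26e-05, edgeR) was the highest point estimate among the mRNAs, and lay within 1 SE of that of mt-Nd5. The kit does not mark strand and the strand setting of the counting was not given, so reads of mt-Nd6 and of RNA transcribed against it cannot be told apart. The same holds for the 14 bases that both genes share, shown in capitals at the end of mt-Nd5 (chrMT:13526-13565) because a pair reaching into them fits 2 genes.
mt-Nd5: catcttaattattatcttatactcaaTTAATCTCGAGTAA
Per base of gene length, mt-Nd6 counts were 0.965 ± 0.0777 times those of mt-Nd5 in Dorsal and 0.943 ± 0.206 times in Ventral (SD, n = 5 each), and these ranges overlapped.

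Complex III has a mitochondrial subunit in cytochrome b. mt-Cytb (chrMT:14145-15288), which shared no window with an annotated nuclear transcript, had 328, 468, 362, 315 and 338 CPM in Dorsal, against 90.9, 60.1, 126, 83.0 and 106 CPM in Ventral. The groups did not overlap, and the log2 fold change was 1.96 (SE 0.17, adjusted p = 1.03e-05, edgeR). Of the 3 catalytic-core subunits of complex IV, cytochrome c oxidase, only mt-Co1 (chrMT:5328-6872) was measurable. It had 635, 725, 716, 658 and 663 CPM in Dorsal, against 203, 106, 336, 213 and 243 CPM in Ventral, and its log2 fold change of 1.63 (SE 0.21, adjusted p = 0.000124, edgeR) was the lowest of the 10. mt-Co2 had counts in 4 Dorsal libraries, 8 in all, and none in Ventral, and mt-Co3 had 14 counts in Dorsal and 2 in Ventral. For complex V, mt-Atp6 had 3 counts in Dorsal and 2 in Ventral. Per library, most of these values lie at or near the level of 3 counts, which is between 0.146 and 0.269 CPM. The highest was mt-Co3 in Dorsal 2, with 7 counts or 0.454 CPM. Counts this low are not read as a fold change here.

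**Figure D2:**
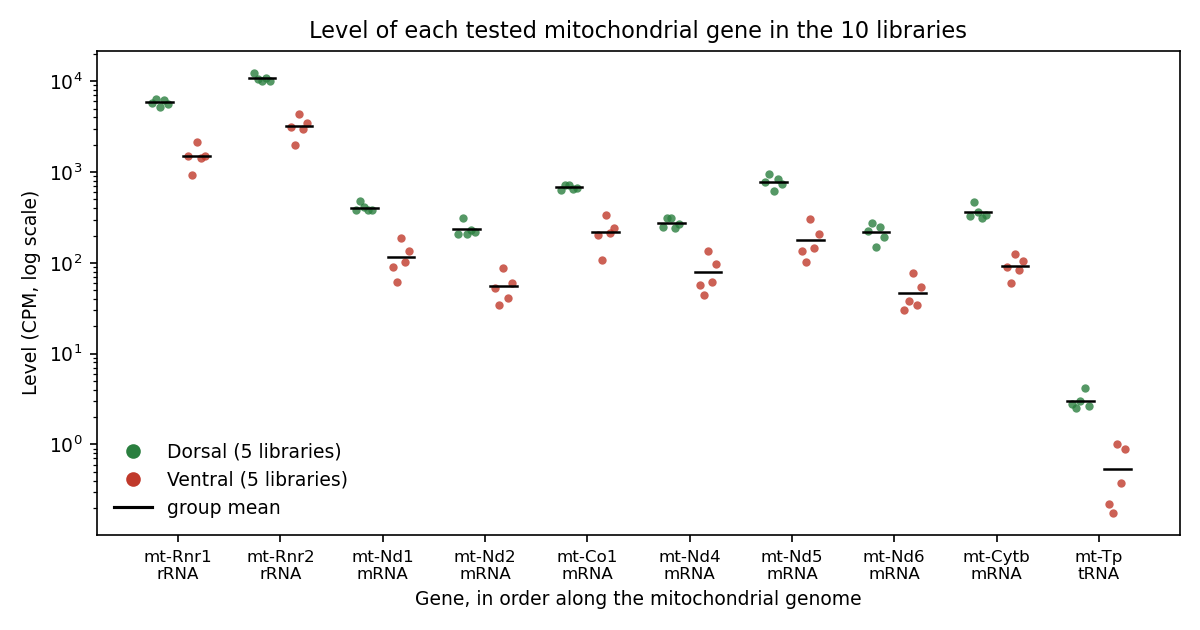
Each point is the level of a mitochondrial gene in 1 library, in CPM on a log scale, with Dorsal in green, Ventral in red and a bar at the mean of 5 libraries, for the 10 genes that passed the filter, in genome order. In each gene all 5 Dorsal points lie above all 5 Ventral points, from mt-Rnr2 at 10766 against 3181 CPM on average down to mt-Tp at 3.03 against 0.537 CPM.

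The tRNAs, which carry amino acids to the mitochondrial ribosome and are shorter than 80 bases, were nearly without counts. Together the 22 genes had 288 counts in Dorsal and 61 in Ventral, of which mt-Tp, the proline tRNA on the minus strand (chrMT:15356-15422), had 216 and 43. Its sequence is printed because it is the only tRNA with a test, and its 67 bases leave room for 18 windows of read length.
mt-Tp: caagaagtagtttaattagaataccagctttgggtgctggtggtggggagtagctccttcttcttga
mt-Tp stood at 2.82, 2.53, 2.99, 4.14 and 2.67 CPM in Dorsal and at 0.222, 0.176, 1.01, 0.379 and 0.895 CPM in Ventral. The groups did not overlap, and the log2 fold change was 2.47 (SE 0.44, adjusted p = 0.000709, edgeR), with the widest error of the 10 genes. As for mt-Nd6, reads of mt-Tp and of RNA transcribed against it cannot be told apart. The other 21 tRNA genes had 72 counts in Dorsal and 18 in Ventral, and their summed level overlapped between the groups. The highest of them were mt-Ti, the isoleucine tRNA, with 23 and 4 counts, mt-Tl2, a leucine tRNA, with 12 and 4, and mt-Tl1, the other leucine tRNA, with 11 and 1, all named after their values were seen. No count was found for 8 tRNA genes, of which 4 lie within the stretch that the copies span and 4 outside it. Without the filter, 17 of the 27 untested mitochondrial genes had a count and could be fitted, and edgeR's quasi-likelihood test called 0 of them, with 1 at an unadjusted p under 0.05.

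Summed by class, the mitochondrial RNAs differed in the same direction and by similar factors. The rRNAs summed to 16619 ± 1209 CPM in Dorsal and 4681 ± 1266 CPM in Ventral (SD, n = 5 each), 3.55-fold, and the mRNAs to 2962 ± 315 and 789 ± 306 CPM, 3.76-fold. The tRNAs summed to 4.02 ± 0.644 and 0.761 ± 0.379 CPM, 5.28-fold, a value that rests on 61 counts in Ventral. All 37 genes took 1.97% ± 0.0665 of the counts on genes in Dorsal and 0.544% ± 0.1505 in Ventral. By complex, the summed mRNA level was 4.04-fold higher in Dorsal for complex I, 3.89-fold for complex III and 3.09-fold for complex IV. The complex III value is mt-Cytb alone. In the complex IV sum, mt-Co1 holds 47888 of 47910 counts in Dorsal and 17377 of 17379 in Ventral. In complex I, mt-Nd3 and mt-Nd4l add almost nothing. By strand of the annotation, the plus-strand mRNAs were 3.70-fold higher and the only minus-strand mRNA, mt-Nd6, 4.65-fold higher. The kit does not mark strand, so these are not measured levels of the strands. Class sums carry no test, and none of these groups overlapped. The ratio of rRNA to mRNA counts was 5.65 ± 0.606 in Dorsal and 6.14 ± 0.788 in Ventral, with overlapping ranges. Nearly all mRNA counts lie on 7 of the 13 mRNA genes. Of these, mt-Co1 and mt-Nd4 share 51.1% and 62.2% of their windows with nuclear transcripts. The ratio is therefore one of counts, not of the RNAs themselves.

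In the share of the mitochondrial mRNA counts the groups overlapped for each of the 7 tested mRNAs. The 6 others had 33 counts in all, and mt-Co1 and mt-Nd4 are partly copied. These are therefore shares of the counts, not of the mRNA itself. mt-Nd5 took 26.4% ± 2.52 of the mitochondrial mRNA counts in Dorsal and 22.4% ± 1.38 in Ventral, and mt-Co1 took 23.1% ± 1.92 and 27.9% ± 3.10 (SD, n = 5 each). These were the widest differences, 4.01 percentage points up for mt-Nd5 and -4.83 points for mt-Co1, and both overlapped between the groups. The shares of mt-Nd1, mt-Nd2, mt-Nd4, mt-Nd6 and mt-Cytb differed by 1.25 points or less, and also overlapped. Among rRNA counts, mt-Rnr1 took 35.3% ± 2.37 in Dorsal and 32.0% ± 1.002 in Ventral, again with overlap.

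**Figure D3:**
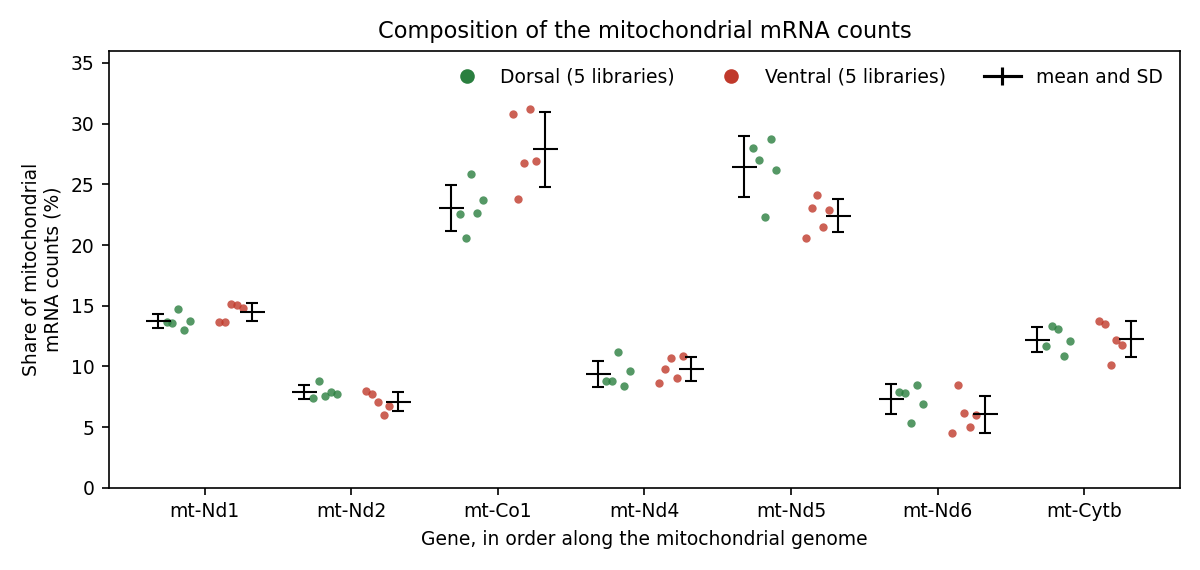
Each point is the percent of a library's mitochondrial mRNA counts that fell on the gene, with Dorsal in green, Ventral in red and the mean and SD of 5 libraries beside the points. The 2 groups overlap in each of the 7 genes shown, with mt-Co1 at 23.1% against 27.9% and mt-Nd5 at 26.4% against 22.4% furthest apart. The 6 other mRNAs were hardly counted.

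Per kilobase of gene, the rRNAs stood far above the mRNAs, at 6805 ± 625 CPM for mt-Rnr2 and 6129 ± 520 CPM for mt-Rnr1 in Dorsal. The mRNAs followed with 440 ± 25.3 CPM per kb for mt-Co1, 430 ± 67.8 for mt-Nd5, 425 ± 42.6 for mt-Nd1 and 419 ± 93.9 for mt-Nd6, which lay within 1 SD of each other. mt-Cytb had 317 ± 53.8, mt-Nd2 226 ± 41.6 and mt-Nd4 201 ± 23.2 CPM per kb. The means of mt-Nd2 and mt-Nd4 differed by less than the SD of mt-Nd2 but more than that of mt-Nd4. In Ventral the order by mean was mt-Co1 at 142 ± 53.4, mt-Nd1 at 121 ± 51.3, mt-Nd5 at 98.0 ± 43.1, mt-Nd6 at 90.02 ± 37.4, mt-Cytb at 81.5 ± 21.7, mt-Nd4 at 57.2 ± 26.7 and mt-Nd2 at 53.5 ± 20.3 CPM per kb. Every neighbouring pair differed by less than the larger SD of the pair, and mt-Cytb and mt-Nd4 by more than the smaller. The order depends on the shared sequence: per kilobase of unshared windows, mt-Co1 rose to 929 ± 53.5 and mt-Nd4 to 551 ± 63.6 in Dorsal, ahead of mt-Nd5 at 478 ± 75.4. A window has the length of 1 read while pairs were counted, so this rise may be too large for partly copied genes.

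The nuclear copies themselves were also listed with counts. The 7 chromosome 1 copies summed to 52.9 ± 14.7 CPM in Dorsal and 12.8 ± 5.06 CPM in Ventral (SD, n = 5 each), 4.12-fold, without overlap. The most counted of them was Gm28439, the copy of mt-Nd4, at 12.4, 27.5, 19.1, 14.9 and 18.6 CPM in Dorsal and 2.60, 3.43, 6.74, 3.73 and 3.58 CPM in Ventral. Of 14 copies on 6 chromosomes that share a window with a mitochondrial gene, 13 passed the filter. All 13 were called higher in Dorsal, beside 15.7% of all tested genes. Gm11407, Gm28438, Gm13341 and Gm20594 were above 1 CPM in at most 1 Ventral library, so they entered the test through the group where they were high. The CPM of Gm29216, Gm28438 and Gm20594 overlapped between the groups. Gm28661 and Gm10925, which had 0 differences over their aligned bases, held 597 and 629 counts over the 10 libraries, against 8 for mt-Co2 and 5 for mt-Atp6. How the pairs counted on these copies were placed was not tested, so the values of gene and copy are both uncertain.

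Other measures of the libraries moved with the mitochondrial level. The no-gene share of read pairs, given above, was higher in Dorsal. The 7 nuclear-retained RNAs listed, among them Malat1, Meg3 and Snhg11, were all called higher in Dorsal, beside 15.7% of all tested genes. They summed to 17474 ± 5629 CPM in Dorsal and 3508 ± 1183 CPM in Ventral (SD, n = 5 each). Malat1, a noncoding RNA of nuclear speckles, took most of this, with 14730 ± 4931 and 2586 ± 762 CPM. Within the groups the measures did not keep 1 order. Dorsal 3 had the highest no-gene share, 33.9%, and the lowest summed mitochondrial level, 18013 CPM, while Ventral 3 had the highest of both in its group, 19.3% and 7717 CPM. The nuclear-retained sum was also lowest in Dorsal 3, at 13900 CPM, and highest in Ventral 3, at 5441 CPM. However, it was highest in Dorsal 2 and lowest in Ventral 1, where the mitochondrial sum was highest in Dorsal 1 and lowest in Ventral 2. The part of either measure in the mitochondrial difference was not tested, apart from a fit with the no-gene share as a covariate, whose values follow the nuclear genes.

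Markers of some other cell types also differed. Of all tested genes, 15.7% were called higher in Dorsal and 9.85% in Ventral. The 8 astrocyte markers summed to 1891 to 2131 CPM in Dorsal and 701 to 1280 CPM in Ventral, with 4 called higher in Dorsal and 1 in Ventral, and Slc1a2, a glutamate transporter, at 1771 ± 80.4 and 868 ± 161 CPM. Of the 8 oligodendrocyte markers 3 were called higher in Dorsal and 0 in Ventral, with Mbp, a myelin protein gene, at 219 ± 41.6 and 146 ± 42.6 CPM and Mobp, another, at 183 ± 22.8 and 102 ± 24.8 CPM. The 6 granule cell markers summed to 833 to 876 and 472 to 817 CPM, with 1 called higher in Dorsal. The 8 interneuron markers summed to 3262 to 4354 and 3943 to 5181 CPM, with 3 called higher in Ventral. Of 8 microglia markers 1 was called higher in Dorsal, of 5 choroid plexus markers 2 were, and 0 of 6 endothelial and 0 of 2 tested red blood cell markers were called, all at summed levels that overlapped between the groups. The counts of calls for granule cell and microglia markers are near the share of all tested genes, and are not results about these cells. No marker in these lists was at 0 in every library of a group. Their part in the mitochondrial difference was not tested.

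**Figure D4:**
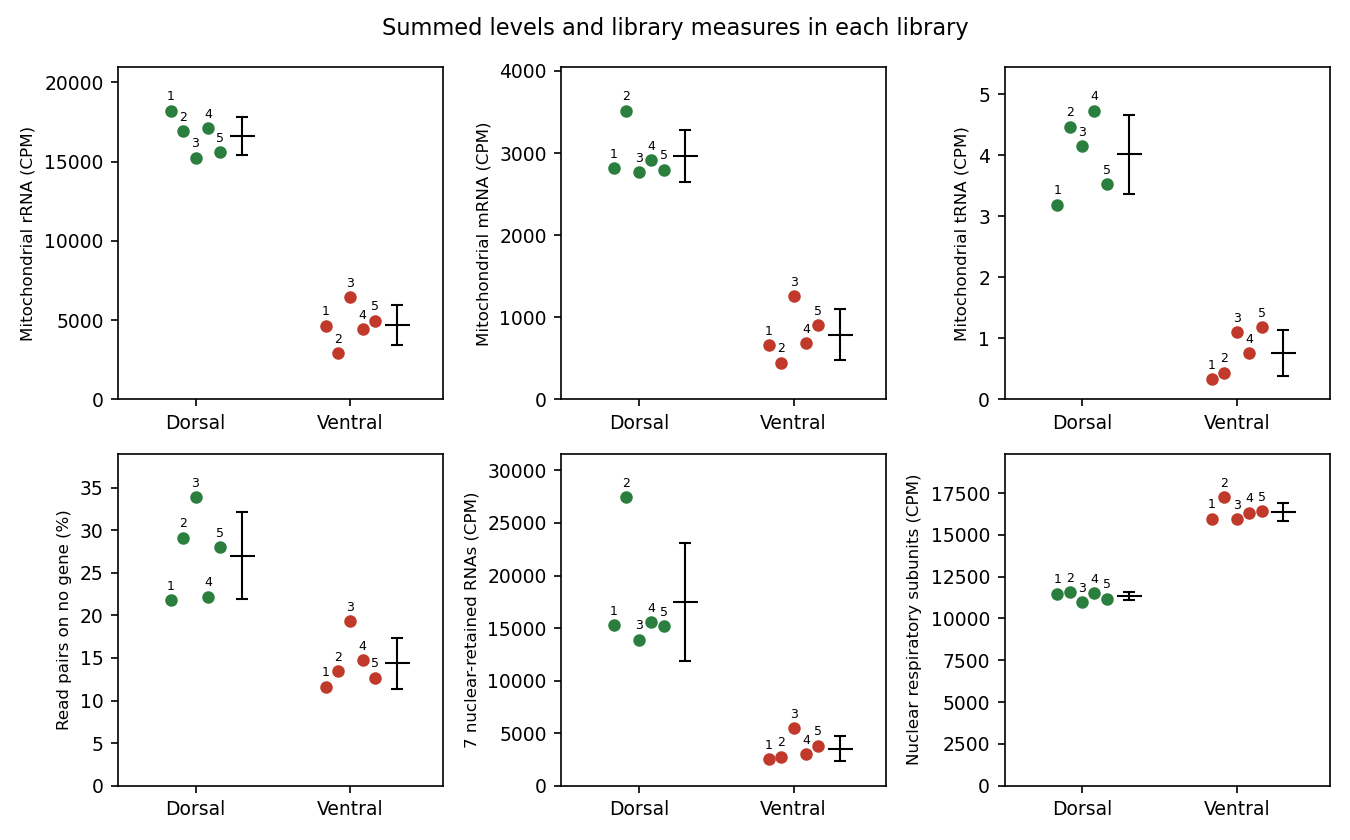
Each panel gives 1 value per library, with the replicate number above the point and the mean and SD of 5 libraries beside it: summed CPM of mitochondrial rRNA, mRNA and tRNA, percent of read pairs on no gene, and summed CPM of 7 nuclear-retained RNAs and of the nuclear respiratory subunits. The first 5 measures are higher in all Dorsal libraries (rRNA 16619 against 4681 CPM on average), and the nuclear subunits are higher in all Ventral libraries (16380 against 11339 CPM).

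Among nuclear genes of the respiratory complexes, calls were in the opposite direction. Of 81 tested genes for nuclear subunits of complexes I to V, 38 (46.9%) were called higher in Ventral, beside 9.85% of all tested genes. In Dorsal 0 were called, beside 15.7% of all tested genes, and the median log2 fold change of the 81 was -0.58. Complex I gave 21 of 36, complex II, which has no mitochondrially encoded subunit, 1 of 4, complex III 5 of 9, complex IV 5 of 15 and complex V 6 of 17. Ndufa4, a small subunit of the respiratory chain, stood at 384 ± 17.3 CPM in Dorsal and 613 ± 156 CPM in Ventral, and Atp5b, the catalytic beta subunit of ATP synthase, at 947 ± 78.2 and 1510 ± 170 CPM (SD, n = 5 each). Both were called, with adjusted p = 0.00303 for Ndufa4 and adjusted p = 0.000266 for Atp5b (edgeR). Cox6c, a complex IV subunit, had 746 ± 83.1 and 992 ± 73.4 CPM and passed the adjusted p (0.00548, edgeR) but not the ratio, with a log2 fold change of -0.41.

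The proteins of the mitochondrial ribosome and the factors that make and handle mitochondrial RNA are nuclear-encoded as well. Of 76 tested genes for mitochondrial ribosomal proteins, 21 (27.6%) were called higher in Ventral and 0 in Dorsal, with a median log2 fold change of -0.46. Mrpl50, Mrpl18 and Mrps14, the most abundant of them, were not called. Of 69 tested genes for mitochondrial DNA transcription and replication, RNA processing, translation and tRNA charging, 8 were called higher in Ventral and 1 in Dorsal, with a median of -0.20. The 8 are 11.6% of the 69, near the 9.85% of all tested genes called higher in Ventral, and are not a result about these factors. Tfam, which packages mitochondrial DNA and starts its transcription, had 32.6 ± 3.72 CPM in Dorsal, against 39.5 ± 3.995 CPM in Ventral and was not called (adjusted p = 0.101, edgeR). Lrpprc, which stabilises mitochondrial mRNAs, had 240 ± 22.5 and 247 ± 27.0 CPM, with a log2 fold change of -0.04 (adjusted p = 0.818, edgeR). Mtpap, the mitochondrial poly(A) polymerase, named after its values were seen, was called higher in Ventral at 20.1 ± 1.21 against 30.6 ± 2.28 CPM. The factor called higher in Dorsal, also named after its values were seen, was Cars2, a cysteinyl-tRNA synthetase, at 8.05 ± 4.61 and 3.78 ± 0.895 CPM, and its call was lost in 6 other fits of all 10 libraries. With the no-gene share of read pairs as a covariate, the calls in Ventral were 14 of 81 respiratory subunits, 7 of 76 ribosomal proteins and 2 of 69 factors, beside 2.34% of all tested genes in that fit. The factors' 2.90% is near that share.

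The size of the mitochondrial difference depended on the fit more than its direction did. When each library's trend on GC content and length was removed, all 10 genes were still called higher in Dorsal, but the log2 fold change of mt-Rnr2 fell from 1.76 to 0.68, that of mt-Rnr1 from 1.96 to 0.999 and that of mt-Nd4 from 1.81 to 0.77, while the median of all genes moved to -0.14 and the calls over all genes from 2636 in Dorsal and 1655 in Ventral to 2188 (13%) and 2752 (16.4%). With the no-gene share of read pairs as a covariate, the log2 fold changes ranged from 1.11 for mt-Nd4 to 2.71 for mt-Tp. In that fit 8 of the 10 were called, beside 5.75% of all tested genes called higher in Dorsal, and mt-Co1 (adjusted p = 0.0591, edgeR) and mt-Nd4 (adjusted p = 0.0811, edgeR) were not.

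**Figure D5:**
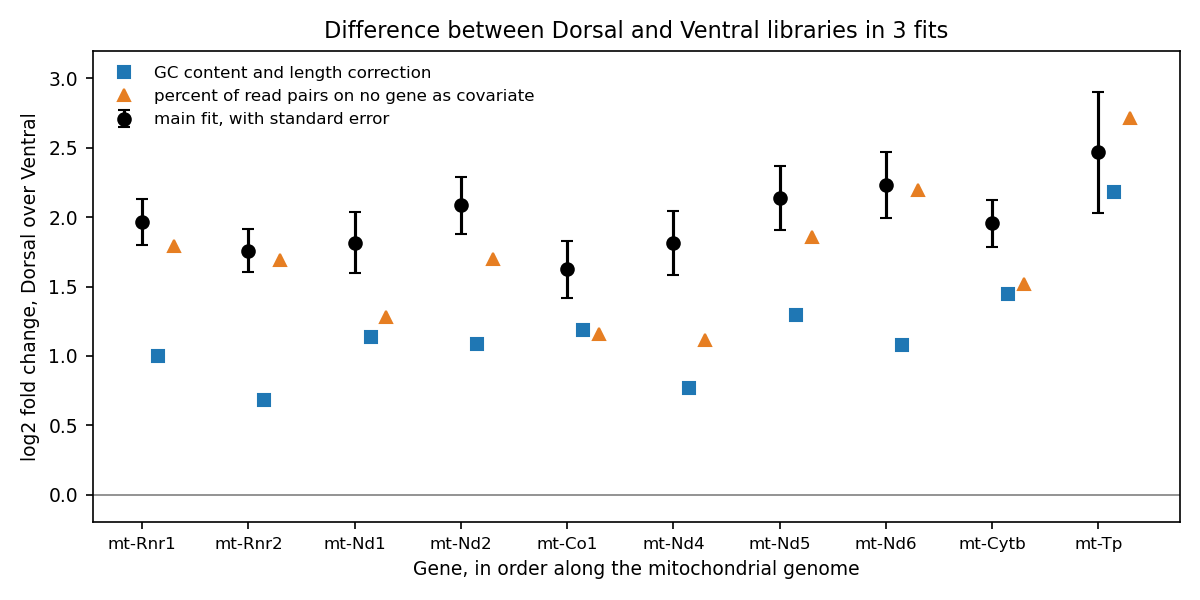
Black points give the log2 fold change, Dorsal over Ventral, of the 10 tested mitochondrial genes with its standard error, blue squares the same after correction for GC content and length, and orange triangles with the percent of read pairs on no gene as a covariate. All values lie above 0, from 0.68 for mt-Rnr2 after the correction to 2.71 for mt-Tp with the covariate.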

How the data were processed

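TRAP RNA from 10 libraries (5 Dorsal, 5 Ventral, grouped by the labels) was amplified with Ovation RNAseq V2 and made into TruSeq v2 libraries, sequenced as 50 bp paired ends. Per the labels, the submitters' processing notes name STAR 2.5.2b, HTSeq 0.7.2, edgeR and build GRCm38. The deposited values are raw counts of read pairs per Ensembl gene. Read pairs on no gene (11.6 to 33.9% of a library) and ambiguous ones (5.92 to 8.66%) stayed out of library sizes. Of 54838 ids, 54809 matched the GENCODE annotation of GRCm38, from which sequences, positions and lengths were also read.

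Counts were tested with edgeR 4.0.16 (R 4.3.3): TMM factors, more than 1 CPM in at least 2 libraries, quasi-likelihood test, Benjamini-Hochberg adjustment over 16806 genes. A gene was called where the adjusted p was below 0.05 and the group means of CPM plus 1 differed by more than 0.58 in log2, with the fitted log2 fold change in place of that difference in the GC-corrected and covariate fits. An SE is the absolute log2 fold change over the root of F. The edgeR 4 dispersions were taken after the edgeR 3 ones had been run, to follow earlier processing of these tables, and edgeR 3 is an alternative. Dorsal and Ventral pools share mice in a way the labels do not give, so the main fit has no animal term and p-values measure the spread between these libraries. Same-group libraries differed by more than counting noise (a chi-square statistic of 4.70 to 49.5 per degree of freedom), so none was a duplicate. Floors of 3 counts cover counting error only.

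Windows of 50 bases were matched to annotated transcripts only. A search of the whole genome, or with a mismatch, was not analysed here, so shared sequence may be more than given. In simulated data for Dorsal against Ventral with 16075 genes, the fit called 72.0% of 100 genes changed 4-fold, 97.5% of the 40 among them with the highest levels, and 10 unchanged genes. A first bar of 80% overall was missed and replaced by one on those highest levels.

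All 37 genes are accounted for, with mRNAs, rRNAs and tested tRNAs named. From each nuclear list the 3 most abundant genes could be named. The genes and lists were chosen with earlier results of these data known. Alternatives were other scalings, filters, tests, a replicate block, GC and length correction, a covariate, and each library left out. The level of 1 marker gene, and the sum of its list, is not reported here.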

Additional observations from a re-analysis of the deposited data

Results flagged for a closer look

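Of 46 groups of 5 libraries checked, 5 had a library whose gap to the nearest other exceeded 0.71 of the group's range, where chance gives about 1 in 20 groups. In Dorsal 2 the summed mitochondrial mRNA was 3517 CPM, with the other Dorsal libraries between 2768 and 2911. In the same library mt-Nd1 stood at 476.8 CPM (others 379.5 to 407.2) and mt-Nd2 at 310.6 CPM (others 208.4 to 230.8), and these 3 values share counts. The 7 nuclear-retained RNAs also summed highest in that library, at 27478.5 CPM, with the others between 13899.8 and 15557.5. mt-Tp was at 4.136 CPM in Dorsal 4, with the others between 2.529 and 2.993. The 7 chromosome 1 copies summed to 21.57 CPM in Ventral 3, with the others between 8.963 and 11.97.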

How the results depend on the processing

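All 10 tested mitochondrial genes stayed called higher in Dorsal in every alternative fit except that with the no-gene share as a covariate, where 8 did, and 0 were called in Ventral in any. Without each library in turn the count stayed at 10. Same-numbered libraries correlated at -0.020 to 0.043, with a mean of 0.015 beside -0.0018 for different numbers, and 3 of 10 correlated best with their own number. These low values cannot tell whether same-numbered pools share mice, since each library also varies on its own. With the replicate block 10 were called, and the count over all genes went from 2636 and 1655 to 2656 and 1672. No class sum or share moved by more than the spread between libraries, also with the chromosome 1 copies added to the mRNAs, an alternative chosen, like edgeR 3, after seeing the data. The calls over all genes in Dorsal and Ventral were 2217 and 1408 with edgeR 3, 967 and 394 with the covariate and 2188 and 2752 with the GC and length correction.

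Over all tested genes, calls in Ventral were 9.85% in the main fit, 2.34% with the covariate and 16.4% with the correction. With block and correction they numbered 2770, beside 2752 with the correction alone. Calls in Ventral for the 81 nuclear respiratory subunits went from 38 (46.9%) to 14 (17.3%) with the covariate. For the 76 mitochondrial ribosomal proteins they went from 21 (27.6%) to 7 (9.21%) with the covariate. The correction gave 35 (46.1%), and block and correction 33. For the 69 expression factors they went from 8 (11.6%) to 2 (2.90%) with the covariate. The correction gave 17 (24.6%), and block and correction 17. DESeq2 size factors, upper-quartile factors and the DESeq2 test each gave 5. Those fits had 1521, 1469 and 1458 calls in Ventral over all genes, beside 1655 in the main fit. As libraries were left out, the calls for these factors ranged from 4 to 8 (4 without Dorsal 4 or Dorsal 5). The 1 factor called in Dorsal became 0 with the likelihood-ratio test, the block, the correction, both, the covariate and edgeR 3, and ranged from 0 to 1 as libraries were left out (0 without Dorsal 2, 3 or 5 or Ventral 3, 4 or 5). The causes were not tested. Apart from mt-Tp, the tRNAs and also 6 mRNAs had too few counts to pass the filter.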
